A study of Mus musculus with 7 samples.

Results

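The Notch pathway was examined through 10 genes in myoblasts, the precursor cells of skeletal muscle: the receptor genes Notch1, Notch2 and Notch3, the ligand genes Jag1, Jag2 and Dll1, the nuclear effector Rbpj, and the target genes Hes1, Hey1 and Heyl. All 10 were chosen by name, as genes paired with a probe set in the platform's annotation table. They had 20 probe sets out of 45101 on the array, and the 10 are among 18193 genes with a probe set of their own. Expression was measured on Affymetrix arrays hybridised with cRNA from 7 samples. The 3 wild type samples came from female C57BL/6 mice. The 4 Hmga2 KO samples came from C57BL/6 mice with the genotype HMGA2 -/-, replicates 1 and 3 male and replicates 2 and 4 female. The labels name no treatment. The ages of the mice, the isolation of the cells and the design of the deleted allele are not given in the sources used. The labels call the samples biological replicates.

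Notch receptors sit in the cell membrane and are activated by ligands on neighbouring cells. Activation cuts the receptor, and its intracellular part travels to the nucleus, where it binds the DNA-binding protein Rbpj and turns on genes of the Hes and Hey families, which encode transcriptional repressors. In skeletal muscle the pathway is known for keeping satellite cells quiescent and for holding back the differentiation of myoblasts, and Hey1 and Heyl are common readouts of it in these cells.

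RefSeq promoters of assembly GRCm38.p6 were matched for 7 of the 10 genes, while Hes1, Hey1 and Heyl were not matched. Dll1 and Rbpj had 2 promoters each, which gave 9 in all. The 250 bases before each start were searched on both strands for TGGGAA, the core of the sequence that Rbpj binds, and its longer form GTGGGAA. The search also covered CACGTG and CACNAG, where N is any base, sequences bound by proteins of the Hes and Hey families. Over 32851 promoters of that length, 21.6% held TGGGAA, 5.42% GTGGGAA, 6.02% CACGTG and 36.7% CACNAG. Every GTGGGAA also holds TGGGAA. Among the 9 promoters TGGGAA was found only in those of Rbpj, and CACNAG only in those of Notch1, Notch2 and Notch3, while GTGGGAA and CACGTG were found in none of them. A match is a description of these letters and not evidence of binding. The promoters of Jag1 and Rbpj are shown because these genes had the smallest unadjusted p-values among the 10, and that of Notch3 because it held 2 CACNAG matches. Each is written in the direction of its gene. Capitals mark matches to TGGGAA or CACNAG on either strand, and the Jag1 window held none.
Rbpj, first promoter, chr5:53590096-53590345, plus strand: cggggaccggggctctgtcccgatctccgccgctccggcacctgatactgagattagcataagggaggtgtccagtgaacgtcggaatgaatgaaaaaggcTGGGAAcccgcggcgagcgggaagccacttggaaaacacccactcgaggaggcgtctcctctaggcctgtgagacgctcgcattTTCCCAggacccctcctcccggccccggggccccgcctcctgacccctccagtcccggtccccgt
Notch3, chr17:32166891-32167140, minus strand: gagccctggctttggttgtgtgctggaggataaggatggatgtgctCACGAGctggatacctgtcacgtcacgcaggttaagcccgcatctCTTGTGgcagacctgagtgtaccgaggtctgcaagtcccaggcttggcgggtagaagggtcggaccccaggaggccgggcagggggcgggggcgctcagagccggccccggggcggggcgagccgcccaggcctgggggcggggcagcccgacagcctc
Jag1, chr2:137116521-137116770, minus strand: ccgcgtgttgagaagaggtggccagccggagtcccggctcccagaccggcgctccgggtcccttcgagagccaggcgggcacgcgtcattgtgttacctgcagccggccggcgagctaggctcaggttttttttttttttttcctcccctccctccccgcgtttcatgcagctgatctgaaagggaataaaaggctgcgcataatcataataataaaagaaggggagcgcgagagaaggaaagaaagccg
In the first Rbpj promoter the matches lay 149 to 144 and 65 to 60 bases before the start, the first in the direction of the gene and the second on the opposite strand. The second Rbpj promoter starts farther along the gene and overlaps the first. Its only TGGGAA match, 205 to 200 bases before its start, is the same site as the later match of the first promoter.

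The arrays had been scaled by the authors to a common median intensity of 150. The deleted gene, Hmga2, read 9997.5 to 12800 in the wild type samples and 85.7 to 104 in the Hmga2 KO samples. Y-linked probe sets, whose genes are missing in the 5 females, read 33.9 to 58.2 there, which gives the level of background. Actb control probe sets at both transcript ends gave a 3' over 5' ratio, which grows with RNA degradation, of 1.61 to 1.74 in 6 samples and of 1.94 in wild type replicate 2. Myog and Myod1, which define the muscle lineage, had intensities of 13699 to 21079 and 14293 to 15766. The endothelial list had 14 of 17 markers below 150 in all 7 samples and the leukocyte list 9 of 11.

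On their brightest probe sets, none of the 10 genes passed an adjusted p of 0.05 between Hmga2 KO and wild type (limma, adjusted over all genes), and 0.0275% of all genes did. The ligand gene Jag1 had the largest difference, with a level 1.94 times that of wild type, and the nuclear effector Rbpj had a small difference the other way. These were the 2 members with an unadjusted p under 0.05, 1 higher and 1 lower, against 2.99% and 10.3% of all genes in those directions. They were also the 2 members whose groups did not overlap, against 2.37% of all genes higher and 9.29% lower. The median change of the 10 genes was 0.088 on the log2 scale, beside -0.071 over all genes, and 8 of the 10 lay above that median, as 50.0% of genes do by definition. Of the 20 probe sets, tested among all 34945 of a single gene, 0 passed the adjusted test, while 0.0200% of all did. Of the 20, 2 had an unadjusted p under 0.05 as higher and 1 as lower, against 3.33% and 8.84% of all probe sets, and 1 and 2 had groups that did not overlap, against 2.47% and 8.40%. The receptors, Jag2, Dll1 and the 3 target genes had overlapping groups on their brightest probe sets.

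**Figure D1:**
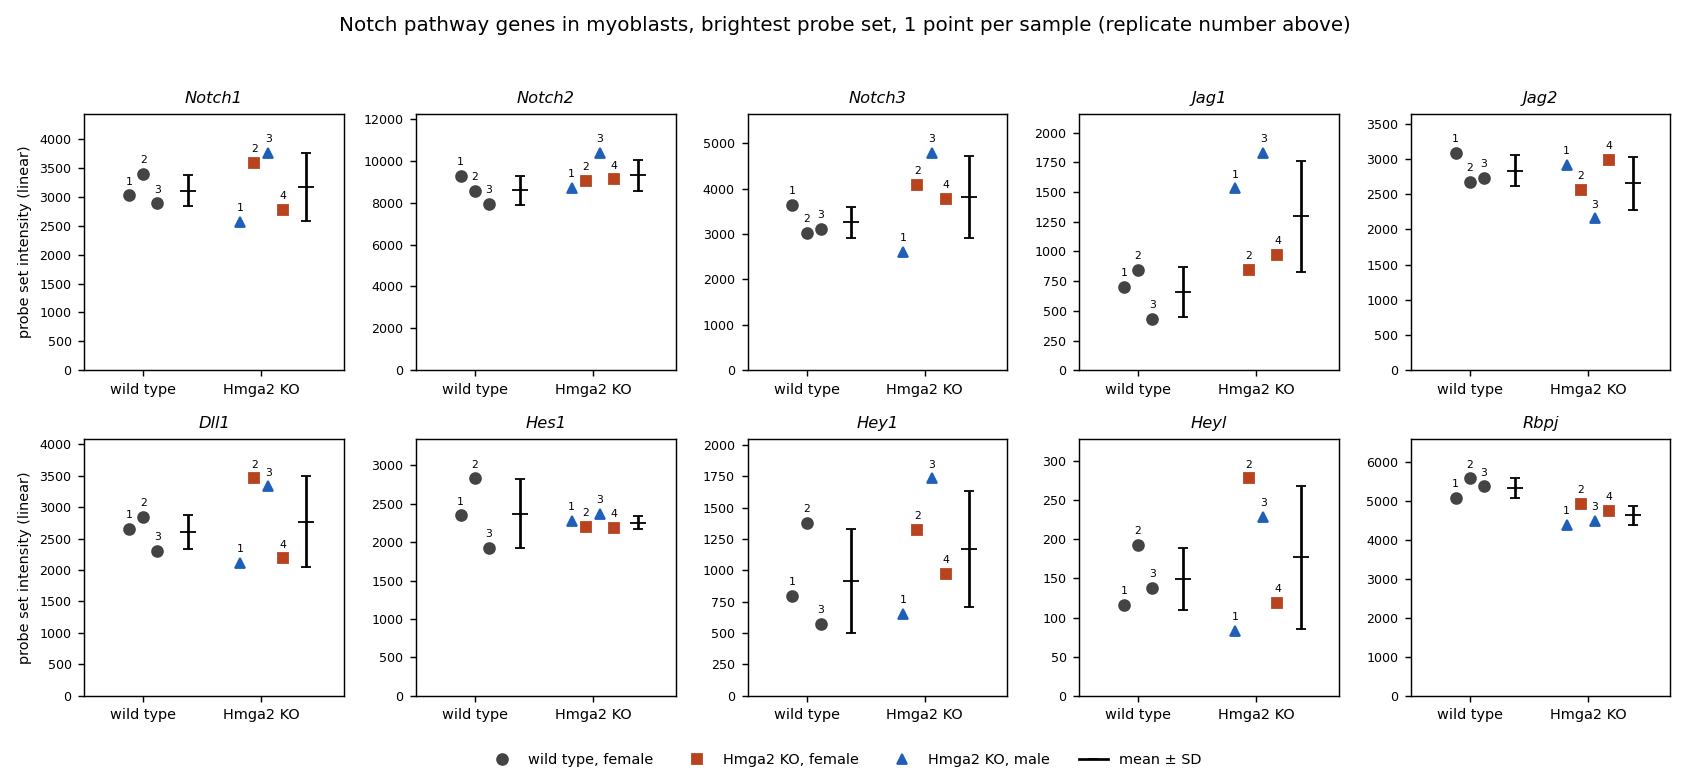
Probe set intensity on a linear scale (y axis, starting at 0) of the 10 Notch genes on their brightest probe sets in 3 wild type and 4 Hmga2 KO samples (x axis), with 1 point per sample, its replicate number above it, and the mean ± SD at the right of each group. The groups are apart for Jag1 and Rbpj and overlap for the other 8 genes.

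Among the ligands, Jag1 encodes Jagged1, a membrane protein that activates Notch receptors on adjacent cells. Its brightest probe set (1434070_at) had intensities of 700.1, 842 and 434 in wild type replicates 1 to 3. In Hmga2 KO replicates 1 to 4 it had 1531, 847, 1831 and 971. All 4 Hmga2 KO samples lay above all 3 wild type samples, but replicate 2 exceeded wild type replicate 2 by only a few units, and both males lay above both females. The means were 659 ± 207 (SD, n = 3) and 1295 ± 465 (SD, n = 4), a change of 0.96 on the log2 scale (SE 0.303, 95% interval 0.27 to 1.64, unadjusted p = 0.0117, adjusted p = 0.295, limma).

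The Jag1 difference was smaller when sex was held constant. In the 5 females alone the change was 0.51 (SE 0.261, adjusted p = 0.730, limma). No member passed the adjusted test between Hmga2 KO males and females, while 0.0385% of all genes did. For Jag1, males exceeded females by 0.88 (SE 0.278, 95% interval 0.25 to 1.52, unadjusted p = 0.0124, adjusted p = 0.589, limma), the only member with an unadjusted p under 0.05 in that comparison, where 6.30% of all genes had one. Because there is no wild type male, the share of the difference between groups that belongs to sex cannot be told apart from that of genotype in males. Without wild type replicate 3, the lowest sample, the change was 0.68 (unadjusted p = 0.0569).

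Jag1 had 2 further probe sets. The next in brightness (1421106_at) read 197, 153 and 103 in wild type and 273, 162, 350.4 and 182 in Hmga2 KO. The 2 Hmga2 KO males were again the highest samples and wild type replicate 3 the lowest, but the females overlapped with wild type. Its change was 0.66 over all samples (SE 0.289, adjusted p = 0.405, limma over all probe sets) and 0.24 in females. The dimmest probe set (1421105_at) read 64.6 to 73.1 over all 7 samples, just above background, with a difference of 0.0085 (adjusted p = 0.978).

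The other 2 ligand genes had small differences on their brightest probe sets. Jag2, which encodes the related ligand Jagged2, had intensities (1426430_at) of 3090.3, 2679.9 and 2733 in wild type and 2916, 2562, 2156 and 2986 in Hmga2 KO. Here Hmga2 KO replicate 3, the sample with the most Jag1, was the lowest of the 7. The Jag2 change was -0.10 (SE 0.130, 95% interval -0.40 to 0.19, adjusted p = 0.754). On its dimmer probe set (1426431_at) Jag2 had 507, 572 and 515 against 446, 486, 439 and 459, so that all Hmga2 KO samples lay below all wild type samples. That change was -0.21 (SE 0.093, unadjusted p = 0.0459, adjusted p = 0.402), and -0.17 in females alone.

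Dll1, a ligand gene of the Delta family, had a spread within the knockout that exceeded the difference between groups. Its intensities (1419204_at) were 2648, 2842 and 2306 in wild type and 2116, 3458, 3328 and 2184 in Hmga2 KO. Replicates 2 and 3 were the highest of the 7 samples and replicates 1 and 4 the lowest. The change was 0.061 (SE 0.194, 95% interval -0.38 to 0.50, adjusted p = 0.909).

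**Figure D2:**
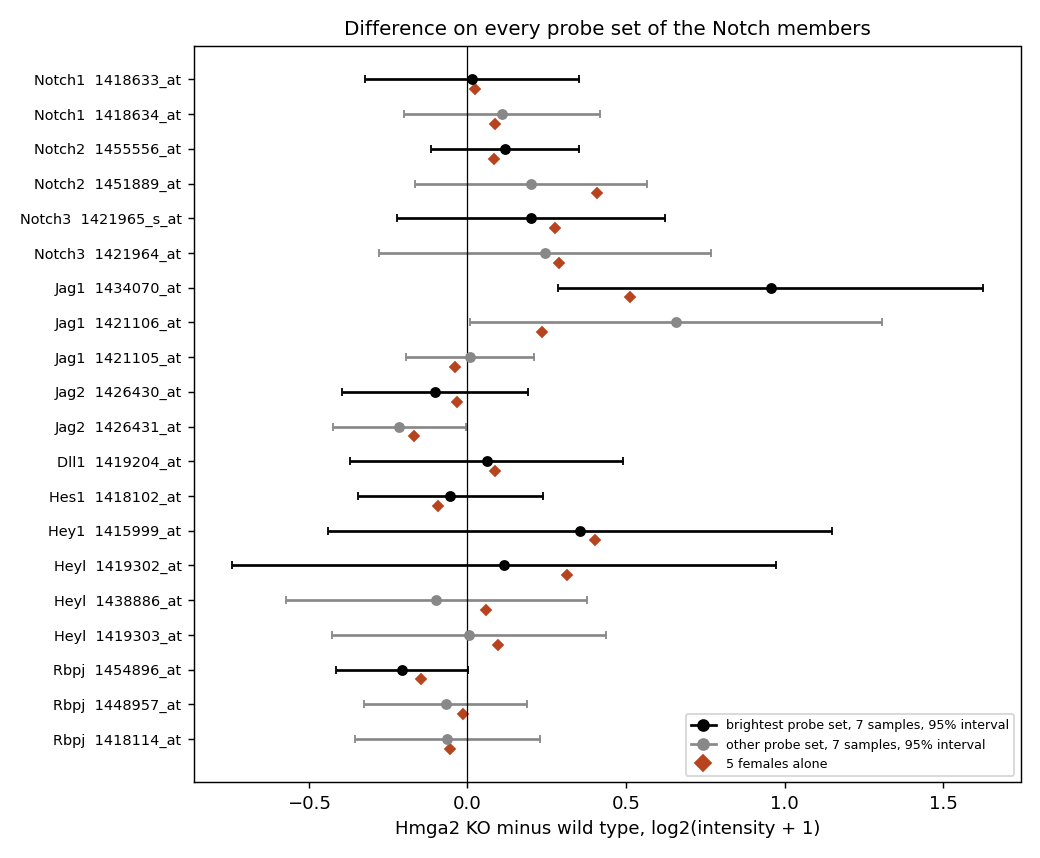
Difference of Hmga2 KO minus wild type on log2(intensity + 1) (x axis) for each of the 20 probe sets of the 10 genes (y axis). Circles with bars give the value and 95% interval over 7 samples, black for the brightest probe set of a gene and grey for others, and diamonds give the value in the 5 females alone. The 2 brighter Jag1 probe sets lie farthest to the right, at 0.96 and 0.66, and both are smaller in females, at 0.51 and 0.24.

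The receptor genes gave small differences. Notch2 was the steadiest of them, with intensities (1455556_at) of 9291, 8552 and 7932 in wild type and 8709.8, 9063, 10392 and 9115 in Hmga2 KO. The highest and lowest of the 7 samples differed 1.31-fold, and the change was 0.12 (SE 0.102, 95% interval -0.11 to 0.35, adjusted p = 0.628). A dim second probe set of Notch2 (1451889_at) read 86.8 to 117 in wild type and 90.2 to 137 in Hmga2 KO, a change of 0.20 (adjusted p = 0.635).

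Notch1 had intensities (1418633_at) of 3026, 3405 and 2889.6 in wild type and 2565, 3584, 3767 and 2774 in Hmga2 KO. As for Dll1, Hmga2 KO replicates 2 and 3 were above every wild type sample and replicates 1 and 4 below every one. The change of Notch1 was 0.015 (SE 0.150, 95% interval -0.33 to 0.35, adjusted p = 0.975) with an SD of 0.27 on the log2 scale in Hmga2 KO and 0.12 in wild type. Its second probe set (1418634_at) also had replicates 3 and 2 as the highest samples, at 2574 and 2413, with a change of 0.11 (adjusted p = 0.772).

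Notch3, a receptor that is also a marker of pericytes, had intensities (1421965_s_at) of 3639.7, 3017 and 3113 in wild type. In Hmga2 KO it had 2609.7, 4093, 4794 and 3781. Replicate 1 was the lowest of the 7 samples and the other 3 Hmga2 KO samples were above all wild type samples. The change was 0.20 (SE 0.190, 95% interval -0.23 to 0.63, adjusted p = 0.660), and 0.37 without Hmga2 KO replicate 1 (unadjusted p = 0.0189, adjusted p = 0.381) but 0.080 without replicate 3. The second Notch3 probe set (1421964_at) ran from 2166 to 2748 in wild type and from 1901 in replicate 1 to 4208 in replicate 3, with a change of 0.24 (adjusted p = 0.693).

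Rbpj, the DNA-binding partner of the cleaved receptor, had a small difference between groups, on its brightest probe set alone. Its intensities (1454896_at) were 5072, 5578 and 5369.8 in wild type and 4384, 4922, 4485 and 4733 in Hmga2 KO, with every Hmga2 KO sample below every wild type sample. The change was -0.21 (SE 0.089, 95% interval -0.41 to -0.0039, unadjusted p = 0.0465, adjusted p = 0.372), or 0.867 times wild type, and in the fit over all probe sets its unadjusted p was 0.0514. It was -0.14 in females alone and -0.12 with arrays set to an equal 75th percentile, where the median of all genes moved to 0.015. The other 2 Rbpj probe sets (1448957_at and 1418114_at) did not separate the groups. They read 4212 to 5109 in wild type and 3836 to 4778 in Hmga2 KO, and 2045 to 2724 and 1948 to 2365, with changes of -0.069 (adjusted p = 0.835) and -0.063 (adjusted p = 0.871). Both turned above 0 with an equal 75th percentile, to 0.017 and 0.023.

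The target genes split into a steady and a variable set. Hes1, a bHLH repressor, had intensities (1418102_at) of 2348, 2829.8 and 1928 in wild type and stayed within 2183 to 2362 in Hmga2 KO. Its change was -0.054 (SE 0.129, 95% interval -0.35 to 0.24, adjusted p = 0.878), and here the wild type samples spread more, with an SD of 0.28 on the log2 scale against 0.052. With arrays set to an equal 75th percentile or quantile normalized the Hes1 difference turned to 0.032 and 0.018.

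Hey1, a repressor induced by Notch in many tissues, had intensities (1415999_at) of 794, 1377 and 576 in wild type and 653, 1321, 1732 and 970.3 in Hmga2 KO. The highest and lowest samples differed 3.01-fold, and both groups held low and high samples. The change was 0.36 (SE 0.361, 95% interval -0.46 to 1.17, adjusted p = 0.687). It was 0.070 without wild type replicate 3, 0.14 without Hmga2 KO replicate 3, 0.70 without wild type replicate 2 and 0.61 without Hmga2 KO replicate 1.

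Heyl, a Hey family member expressed in satellite cells and vascular mural cells, had intensities (1419302_at) of 116, 193 and 138 in wild type and 82.6, 278, 229 and 118 in Hmga2 KO. Hmga2 KO replicates 2 and 3 were again the highest samples and replicate 1 the lowest. The change was 0.12 (SE 0.390, 95% interval -0.77 to 1.00, adjusted p = 0.915), an interval that reaches past the size of the Jag1 difference. It ran from -0.15 without Hmga2 KO replicate 2 to 0.42 without Hmga2 KO replicate 1. The other 2 Heyl probe sets (1438886_at and 1419303_at) were dimmer, at 53.0 to 103 and 54.5 to 91.7 over the 7 samples, and differed by -0.098 (adjusted p = 0.877) and 0.0053 (adjusted p = 0.992). In Hmga2 KO replicate 1 both lay within the range of background.

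These genes also differed among the knockout samples themselves, a pattern described here after their values were seen. Notch1, Notch3, Dll1, Hey1 and Heyl, 5 of the 10 genes, were higher in Hmga2 KO replicates 2 and 3 than in replicates 1 and 4, an order found in 20.4% of all genes. So were 9 of the 20 probe sets, against 22.1% of all. Replicate 2 is female and replicate 3 male, as replicate 4 is female and replicate 1 male, so the order does not follow sex. These genes varied among the wild type samples too. There replicate 2 was the highest for Notch1, Dll1, Hey1 and Heyl but the lowest for Notch3. Wild type replicate 3 was the lowest of its group for Notch1, Dll1 and Hey1. Hmga2 KO replicate 1 was the lowest of the 7 samples for Notch1, Notch3, Dll1, Heyl and Rbpj, where 21.3% of all genes had it lowest. Hmga2 KO replicate 3 was the highest for Notch1, Notch2, Notch3, Jag1 and Hey1, where 6.72% of all genes had it highest. The SD was larger in Hmga2 KO than in wild type for 7 of the 10 genes, and for 46.5% of all genes. The 5 genes of the first pattern come from the same RNA and are not independent of each other.

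**Figure D3:**
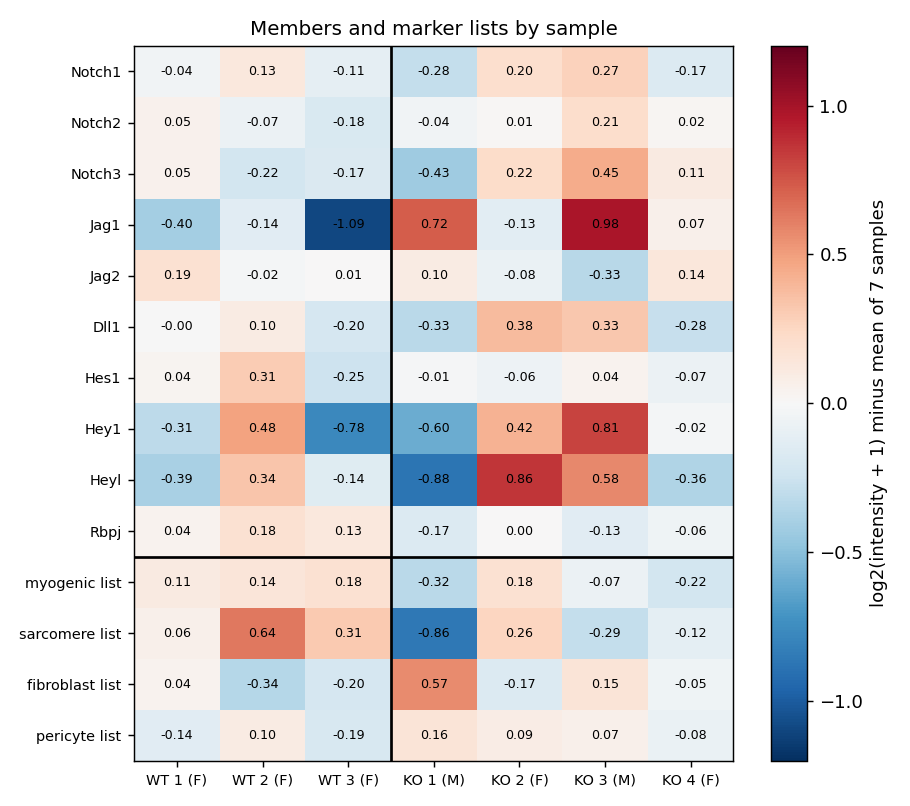
Each cell gives log2(intensity + 1) minus the gene's mean over the 7 samples (colour and number), for the 10 Notch genes above the horizontal line and, below it, the mean over the genes of 4 marker lists, with the members left out of the lists. Columns are samples, with F for female and M for male. Heyl runs from -0.88 in Hmga2 KO replicate 1 to 0.86 in replicate 2, and Jag1 from -1.09 in wild type replicate 3 to 0.98 in Hmga2 KO replicate 3.

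Markers of differentiation and of other cell types moved across the same samples. The mean of 33 sarcomere genes, relative to the 7 samples, was 0.057, 0.64 and 0.31 in wild type and -0.86, 0.26, -0.29 and -0.12 in Hmga2 KO replicates 1 to 4. It was lowest in Hmga2 KO replicate 1, which was also the lowest sample for Notch1, Notch3, Dll1 and Heyl. Replicate 2 of each group had the highest sarcomere mean of its group, and also the highest Dll1 and Heyl. Notch1 was highest there in wild type only, and Notch3 in neither group. Hmga2 KO replicate 3 was high for Notch1, Notch3, Dll1 and Heyl, with a sarcomere mean below all wild type samples. Of the 33 genes 32 lay below the median change of all genes, and 0 passed an adjusted p of 0.05 while 16 had an unadjusted p under 0.05, all lower, against 10.3% of all genes. The summed intensity of the list was 157656 to 220431 in wild type and 85414 to 181814 in Hmga2 KO. The 15 myogenic genes summed to 99345 to 104276 and 79264 to 102001.

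Of 20 markers of fibroblasts and fibro-adipogenic progenitors, 17 lay above the median change of all genes and 0 passed the adjusted test. The 5 with an unadjusted p under 0.05 were all higher, against 2.99% of all genes. Their summed intensity was 17199 to 18731 in wild type and 20265 to 27615 in Hmga2 KO. Without Mgp, left out after the values were seen, the sums were 14358 to 16236 and 15446 to 23611 and overlapped. The list mean also overlapped, at 0.042, -0.34 and -0.20 in wild type and 0.57, -0.17, 0.15 and -0.049 in Hmga2 KO. Its 2 highest samples, Hmga2 KO replicates 1 and 3, were also the highest for Jag1. They are the 2 males of the series, so this shared order cannot be told apart from sex. Of the 4 brightest markers, Mgp differed by 0.73 (adjusted p = 0.158) and Lox by 1.35 (adjusted p = 0.340), while Col3a1 and Gsn differed by 0.12 (adjusted p = 0.705) and 0.010 (adjusted p = 0.982). Of these markers 9 were below 150 in all samples. Among them were Dcn and Lum, named after their values were seen, at 55.7 to 82.5 and 49.1 to 60.0. Lum, with a change of 0.037, still counts among the 17 above the median of all genes, which is -0.071. So do Dpt and Osr1, at 0.0098 and -0.035, while Tcf21, at -0.095, does not. These 3 are also dim and were named after their values were seen. Dcn was also among the 5 with an unadjusted p under 0.05 (change 0.32, limma). Other markers of the list were brighter. Col1a1 and Col1a2, also named after their values were seen, ranged from 69.0 to 2891 and from 101 to 1921.

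The 12 markers of pericytes and smooth muscle, counted without Notch3 and Heyl, summed to 20717 to 30228 in wild type and 22133 to 32671 in Hmga2 KO. Of these 12 markers, 4 were below 150 in all 7 samples. The 4 brightest did not share a direction. Rgs5, a pericyte marker, had 3078, 6701 and 949 in wild type and 9508, 10109.7, 11001 and 5946 in Hmga2 KO (change 1.72, adjusted p = 0.295), and like Jag1 it was lowest in wild type replicate 3 and highest in Hmga2 KO replicate 3. Mcam differed by 0.65 (adjusted p = 0.354), Acta2 by -0.12 (adjusted p = 0.730) and Tagln by -0.031 (adjusted p = 0.973). Abcc9, another pericyte marker, named after its values were seen, lay lower in every Hmga2 KO sample, with 816, 900 and 874 against 236, 752, 385 and 490.0 (change -1.01, adjusted p = 0.295). Endothelial markers, 17 in number, summed to 1823 to 2065 and 1762 to 1876, and 11 leukocyte markers to 917 to 1049 and 960.2 to 1006. Pecam1 and Ptprc, which define these 2 cell types and were named after their values were seen, had 65.9 to 84.3 and 58.5 to 74.7, near background. Of the 6 Schwann and neural markers, Erbb3 alone had 1963 to 6037 over the samples, and the other 5 summed to 468 to 589.9 in wild type and 505 to 600.4 in Hmga2 KO. The part of these cell types, of differentiation and of RNA integrity in the Notch values was not tested, and in such bulk samples fewer cells of a type and less RNA per cell cannot be told apart.

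The rest of the pathway was followed in 63 measured genes of a list of 69. None passed an adjusted p of 0.05 (limma), and 8 had an unadjusted p under 0.05, 3 higher and 5 lower, against 2.99% and 10.3% of all genes. The groups did not overlap for 2 higher and 4 lower genes, against 2.37% and 9.29% of all genes. The median change of the 63 was -0.039, and 40 of them lay above the median of all genes, -0.071, as 50.0% of genes do by definition. That count includes dim genes with little change. Notch4, Dll4, Hes5 and Hes7, named after their values were seen, were below 150 in all 7 samples and had changes of -0.054 to 0.015. Dll3, also dim, had -0.086 and lay below that median. The adjusted p-values of the 63 ran from 0.267 to 0.992.

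Upstream of the receptors, Dlk2, a non-canonical ligand gene, had means of 571 ± 104 (SD, n = 3) for wild type and 408 ± 41.1 (SD, n = 4) for Hmga2 KO (change -0.47, adjusted p = 0.293). Neurl1a, a ubiquitin ligase of ligand uptake, had 1762 ± 284 and 1228 ± 389 (change -0.57, adjusted p = 0.375), but its change was -0.19 in females alone, with the male samples at 732 and 1105. Pofut1, which adds the fucose that receptors need for ligand binding, had 2005 ± 235 and 1670.5 ± 61.9, and its groups did not overlap (change -0.26, adjusted p = 0.338). Mfng, a Fringe enzyme that extends this fucose, had 189 ± 45.2 and 286 ± 91.7 (change 0.57, adjusted p = 0.376). Of the enzymes that cut the receptor, Aph1b, a subunit of gamma-secretase, had 1005 ± 104 and 1207 ± 72.3 with no overlap (change 0.27, adjusted p = 0.336), and the other 7 measured genes of that group had no unadjusted p under 0.05. With its most variable probe set instead of its brightest, the Aph1b change was 0.12 (unadjusted p = 0.450, limma). With the mean of its probe sets it was 0.19. None of the 10 measured inhibitors and turnover factors had an unadjusted p under 0.05.

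In the nucleus, the co-repressor gene Sin3a had the smallest p of the list. It had 707, 689 and 665 in wild type and 503, 589, 549 and 526 in Hmga2 KO, so that every Hmga2 KO sample was lower (change -0.34, SE 0.091, unadjusted p = 0.00442, adjusted p = 0.267). The acetyltransferase genes Kat2a and Ep300 differed in sign. Kat2a had 548 ± 47.3 and 432 ± 52.5 (change -0.34, adjusted p = 0.305), while Ep300, a co-activator in the Notch transcription complex, had 3007 ± 204 and 3652 ± 320.3 with no overlap (change 0.28, adjusted p = 0.319). Snw1, which binds Rbpj and the cleaved receptor, had 3935 ± 199 and 3500.5 ± 136 with no overlap (change -0.17, adjusted p = 0.428). The co-repressor genes Tle2 and Cir1 differed by 0.24 (adjusted p = 0.385) and -0.26 (adjusted p = 0.434).

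Among the other target genes Nrarp, a Notch target that feeds back on the cleaved receptor, had 933, 469 and 614 in wild type and 1139, 882, 782 and 895 in Hmga2 KO. The groups overlapped through wild type replicate 1 (change 0.50, SE 0.221, unadjusted p = 0.0483, adjusted p = 0.374). The sample order of Nrarp was not that of Hey1 and Heyl, since Hmga2 KO replicate 1 was its highest sample and wild type replicate 2 its lowest. The other 8 genes of that group, among them Hes5, Hes6 and Hey2, had no unadjusted p under 0.05. Of the 8, Hes2, Hes3, Hes5 and Hes7 were below 150 in all 7 samples, and Hes7 lay within the range of background in all 7. Their small differences are limited by signal close to background. These genes were named after their values were seen.

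**Figure D4:**
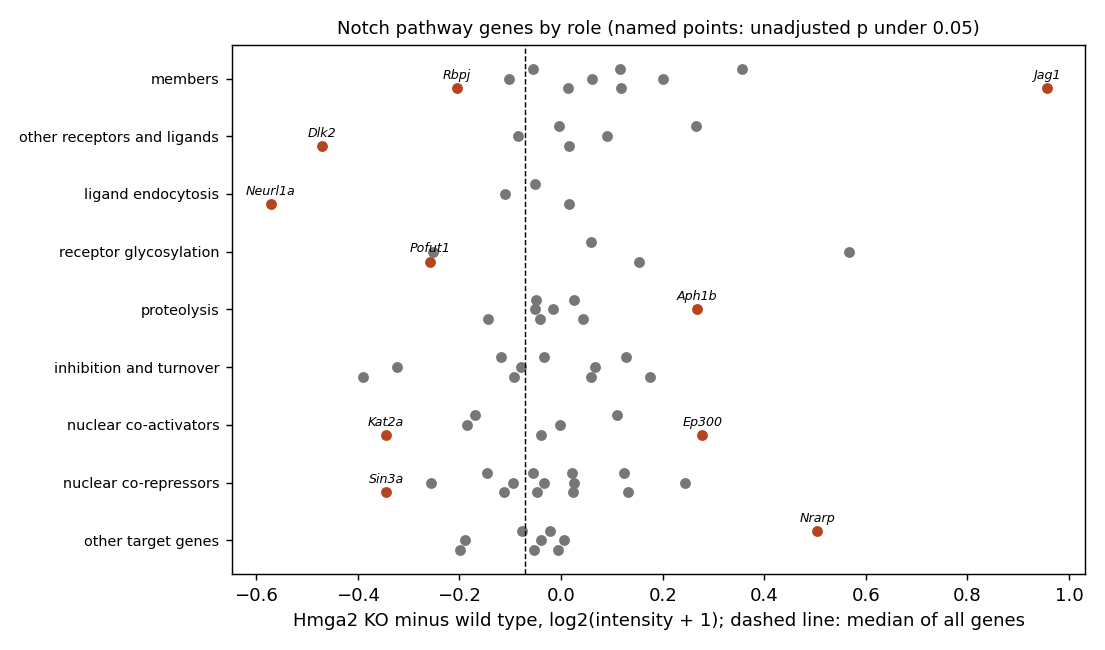
Difference of Hmga2 KO minus wild type on log2(intensity + 1) (x axis) for the 10 members and 63 other Notch pathway genes, grouped by role (y axis), with 1 point per gene. Red, named points have an unadjusted p under 0.05 and none passed an adjusted p of 0.05. The dashed line is the median change of all genes, -0.071, and Jag1 at 0.96 lies farthest from it.

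Jag1 had the widest range over the 7 samples, 4.21-fold, and its profile was compared with those of all other genes by the root mean square distance between log2 values centred on each gene's mean over the 7 samples. The closest was Cyyr1, at a distance of 0.16, with 229, 256 and 162 in wild type and 517, 364, 573 and 361 in Hmga2 KO. Fabp7, a fatty acid binding protein gene, followed at 0.22 and Ltk, a receptor tyrosine kinase gene, at 0.23. None of these 3 genes passed an adjusted p of 0.05 (0.201, 0.293 and 0.357, limma). In each, as in Jag1, Hmga2 KO replicate 3 was the highest sample and wild type replicate 3 the lowest. A choice by likeness to Jag1 favours such shared extremes.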

How the data were processed

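Biotinylated cRNA made from myoblast RNA was hybridised to Affymetrix arrays, per the labels' protocols. The authors deposited linear probe set intensities, and each array has a median of 150, so the authors scaled them to a common median. The way they were summarized and corrected for background was not given in the sources used here. Detection calls were not used. The lowest values per array are 33.2 to 36.7, a floor that understates folds of dim genes.

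Probe sets were named through the platform's annotation table. Of 45101 probe sets, 34945 had 1 gene, 932 several, 9160 none, and 64 were controls. Of each gene's probe sets the one with the highest mean log2(intensity + 1) was used. No further normalization was applied. The group difference was fitted by limma 3.58.1 (lmFit, eBayes; R 4.3.3) without covariates, with Benjamini-Hochberg adjustment over 18193 genes, or 34945 probe sets for a gene's further probe sets, at 0.05. Hmga2 KO males and females were compared in a 3-group fit. With 3 and 4 arrays a group, the number of arrays limits the precision. P-values set a difference against the spread between samples of a group, moderated across genes by eBayes. In the fit without covariates, that spread in Hmga2 KO includes any difference between the sexes. The fits were checked on simulated data.

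The members and lists were chosen with earlier results of these data known. Named besides the members are the 12 pathway genes with the smallest p, the 3 genes closest to the member of widest range, and up to 4 of the brightest markers of a list. Markers and pathway genes named outside this rule, after their values were seen, are marked as such. Tried as alternatives were females alone, sex as a covariate, a replicate block, each sample left out, quantile and 75th percentile scaling, the dimmest 40% left out, the mean or most variable probe set, a trended and robust prior, array weights, pseudocounts of 0 and 16 and a threshold of 0.1.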

Additional observations from a re-analysis of the deposited data

How the results depend on the processing

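No member gene or wider pathway gene passed the adjusted threshold under any of 20 alternatives, where the filter on the dimmest 40% removed Heyl. No member probe set did under the 18 alternatives run at that level, the filter removing dim ones, and no member did between Hmga2 KO males and females under the 17 alternatives run for that comparison. The smallest adjusted p of a member was 0.151, for Jag1 without Hmga2 KO replicate 2. The change of Jag1 stayed positive in all 20 alternatives, from 0.51 to 1.16, and those of Notch2, Notch3, Hey1, Jag2 and Rbpj also kept their direction. The count of 2 members with an unadjusted p under 0.05 was 0 with sex as a covariate and in females alone. It was 1 with array weights, an equal 75th percentile, quantile normalization, the mean of the probe sets or the most variable probe set. Leaving out each sample gave 0 to 2, with 0 without wild type replicate 3.

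The replicate number as a block left 1 such member, and 99 genes of all passed the adjusted threshold, against 5 without it. That count was 9 at a threshold of 0.1 and 2 to 17 when each sample was left out. Deviations of same-numbered samples correlated at 0.31, 0.37 and -0.18, and 2 of 3 wild type samples correlated best with their own number. The main fit did not take the numbers as pairs. Correlations of 3 pairs cannot decide whether same-numbered samples share a source of spread, so pairing is not excluded. The replicate numbers used are those of the sample titles. The other labels number the samples differently and disagree with each other for Hmga2 KO replicate 2, and a block on those numbers was not tried.

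Small differences changed sign. Leaving out 1 sample gave -0.058 to 0.18 for Dll1, -0.074 to 0.11 for Notch1, -0.19 to 0.083 for Hes1 and -0.15 to 0.42 for Heyl, and for the Heyl probe sets 1419303_at and 1438886_at -0.098 to 0.16 and -0.27 to 0.046. It gave -0.017 to 0.042 for the Jag1 probe set 1421105_at, -0.13 to 0.073 for the Rbpj probe set 1418114_at and -0.13 to 0.0059 for 1448957_at. With an equal 75th percentile Hes1 had 0.032 and these Rbpj probe sets 0.023 and 0.017, and with quantile normalization Hes1 had 0.018 and 1418114_at 0.0069. In females alone and with sex as a covariate 1438886_at had 0.057 and 1421105_at -0.040, and with array weights the latter had -0.0026. The cause of these changes was not tested. Differences of dim probe sets are limited by signal close to background.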
